A study of Aspergillus nidulans with 6 samples.

Results

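The genes described here are the 10 genes of nitrate assimilation and nitrogen regulation chosen by identifier from the 10957 genes listed in each library of *Aspergillus nidulans*, a filamentous fungus. The members are 7 structural genes and 3 regulators. The structural genes comprise 4 nitrate genes (*niaD* AN1006, *niiA* AN1007, *crnA* AN1008 and *nrtB* AN0399) and 3 ammonium genes (*glnA* AN4159, *gdhA* AN4376 and *meaA* AN7463). The regulators are *nirA* (AN0098), *areA* (AN8667) and *nmrA* (AN8168). RefSeq assembly ASM1142v1 gives the symbol of 6 of them, and it lists *nrtB*, *nmrA*, *gdhA* and *meaA* by locus tag only, so these 4 names rest on the gene list used here. All 10 were found in the files and passed the filter on low values.

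RNA was sequenced in 6 libraries, a salt and a control library for each of 3 strains. LXA05 (Δ*cnaB*Δ*cchA*, the double mutant) lacks *cnaB*, which encodes calcineurin's regulatory subunit, and the calcium channel gene *cchA*, each replaced by *pyrG*. WSA08 (Δ*cnaB*) lacks *cnaB* alone, also replaced by *pyrG*, and the parent TN02A7, labelled WT, has both genes. All 3 strains carry *pyrG89*, *nkuA*::*argB2* and the developmental allele *veA1*, so none is a full wild type. The labels give *riboB2* and *pyroA4* for the parent and Δ*cnaB* but not for Δ*cnaB*Δ*cchA*, so strain and marker differences cannot be told apart. Conidia were grown for 18 h at 37°C in shaken minimal medium with glucose, nitrate salts, uridine and uracil. A further 30 min followed with 800 mM NaCl (salt) or without it (control). With 1 library per strain and treatment the strains are the only replicates of the salt treatment. With strain as block, the p-values for salt rest in part on how far the salt response varied between strains. Those of the strain comparisons rest in part on the spread around an additive fit of strain and treatment. In each fit limma, the test used, also moderated a gene's spread over all genes tested. The SE, intervals and p-values of limma therefore do not measure the spread of a gene's own values alone.

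In *A. nidulans*, nitrate is taken up by the transporters CrnA and NrtB, reduced to nitrite by nitrate reductase (*niaD*) and then to ammonium by nitrite reductase (*niiA*). Ammonium, which also enters through permeases such as MeaA, is built into glutamate by the NADP-dependent glutamate dehydrogenase (*gdhA*) and into glutamine by glutamine synthetase (*glnA*). The nitrate genes are switched on by NirA, an activator that responds to nitrate, together with AreA, a GATA factor that acts when preferred nitrogen sources run short. NmrA binds AreA and holds down its activity.

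The deposited values are RPM, reads relative to the total counted on genes, after the authors' TMM scaling of the salt and control library of a strain, called normalized RPM here. The libraries held 41369564 to 50006318 reads as recovered from the steps between values, and 3 reads were worth at most 0.0793 normalized RPM. Values under 1 are listed as 0, so this limit and not the depth bounds what can be seen. Every nitrogen gene stood far above it, the lowest value of any member being 14.7. *cnaB* (AN6566) was listed at 0 wherever it had been deleted (4 libraries), against 73.6 with salt and 86.2 without it in the parent. *cchA* (AN1168) had 3.96 and 3.56 in the double mutant, against 74.1 to 136 in the other 4 libraries. The labels name conidia as the source, but of 7 markers of conidia and conidiophores the wall protein gene *dewA* was listed at 0 in all 6 libraries and 5 more stayed at or below 14.7 in each. The exception was the conidial laccase gene *yA*, with 227 to 236 in the salt libraries and 12.5 to 14.3 in the control libraries (log2 fold change 4.11 ± 0.11, SE, limma adjusted p = 0.00084). The sum of the 7 markers was 236 to 244 with salt and 20.8 to 38.6 without it, most of it *yA* with salt. Without *yA* the sum was 8.54 in the double mutant, 9.23 in Δ*cnaB* and 11.4 in the parent with salt, against 7.13, 8.28 and 25.4 without it. *wetA*, a regulator of conidial maturation, had 0, 0 and 1.46 with salt in the double mutant, Δ*cnaB* and the parent, against 1.31, 1.15 and 3.12 without it. These values lie near the limit of 1 under which values are listed as 0, so no test is given for it. The part of these differences in the results below was not tested. Fewer hyphae using nitrate and less RNA per hypha cannot be told apart in such bulk samples.

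The first question was how the pathway stood 30 min after the addition of salt. The 4 nitrate genes fell to between 3.14% and 19.3% of the control level in each strain, and the 3 ammonium genes to between 25.0% and 62.1%. Among the regulators *nmrA* fell to between 33.9% and 63.4%, whereas *nirA* and *areA* stayed between 60.3% and 114% and did not pass the test. Over the 3 strains, tested by limma with strain as block, 8 of the 10 genes fell and 0 rose at an adjusted p under 0.05, where 26.6% of all 8673 genes tested fell and 28.7% rose (55.3% in either direction). These 8 were the 7 structural genes and *nmrA*. In the deposited values, scaled strain by strain, their salt values also lay below the control values of all strains. In those values 23.2% of the genes tested showed that pattern. On a scale common to all libraries *nmrA* did not show it. There it had 38.1 in Δ*cnaB* with salt and 37.9 in the parent without it.

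**Figure D1:**
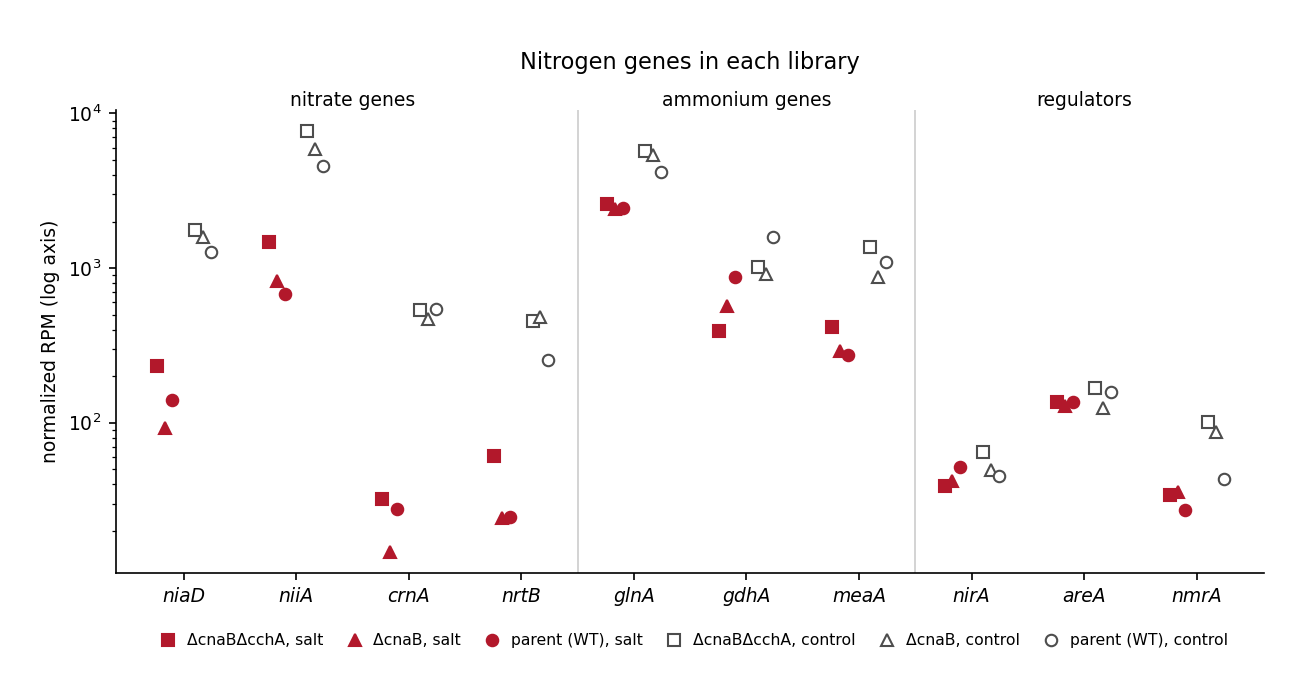
Each point is 1 library, with normalized RPM on a log axis for each of the 10 genes, filled red symbols for salt and open grey symbols for control. For the 4 nitrate genes the salt points lie well below the control points, while those of *nirA* and *areA* overlap.

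The largest fall was that of a nitrate transporter gene. *crnA*, for a high-affinity transporter, had 32.1 normalized RPM in the double mutant, 14.7 in Δ*cnaB* and 27.5 in the parent with salt, against 536, 466 and 544 in the same strains without salt. No salt value came near a control value, and the control values of the 3 strains lay close together. The log2 fold change over the strains was -4.45 ± 0.21 (SE, adjusted p = 0.00086), the 36th lowest of 8673 genes. *nrtB*, the other high-affinity nitrate transporter gene, had 61.3, 24.1 and 24.7 in the salt libraries of Δ*cnaB*Δ*cchA*, Δ*cnaB* and the parent, against 453, 486 and 255 in their control libraries. Its parent control was the lowest of the controls, yet still above every salt value. The fall was -3.53 ± 0.30 on the log2 scale (adjusted p = 0.0017).

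The reductase genes followed. *niaD*, which encodes nitrate reductase, had 234, 92.1 and 139 normalized RPM with salt in the double mutant, Δ*cnaB* and the parent, and 1751, 1588 and 1267 without it. The groups did not overlap, and Δ*cnaB* went lowest with salt although its control value was the middle one. The log2 fold change was -3.40 ± 0.26 (SE, adjusted p = 0.0014). For *niiA*, the nitrite reductase gene, the values were 1475, 829 and 678 with salt, against 7654, 5911 and 4598 without it, with the strains in 1 order in both treatments. *niiA* fell by 2.66 ± 0.14 on the log2 scale (adjusted p = 0.00088), the smallest change of the 4 nitrate genes. In each of the 3 strains *crnA* had a lower response than *niiA*, with a difference in log2 fold change of -1.68 in the double mutant, -2.15 in Δ*cnaB* and -1.54 in the parent (mean -1.79 ± 0.32, SD). The difference between *nrtB* and *niaD* was small beside this, 0.02, -0.22 and -0.18.

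The summed reads of the 4 nitrate genes made up 0.166% of all reads in the double mutant, 0.0864% in Δ*cnaB* and 0.0806% in the parent with salt, against 1.13%, 0.940% and 0.719% without it. Every salt share was far below every control share. The 95% exact (Clopper-Pearson) interval with salt was 0.165% to 0.167% for the double mutant and 0.0798% to 0.0814% for the parent. Such intervals cover counting error only, and since more reads were recovered than the raw reads the study states, they are too narrow. The 3 ammonium genes summed to 0.315%, 0.294% and 0.333% of the reads with salt, against 0.880%, 0.794% and 0.741% in the controls. The regulators summed to 0.0192%, 0.0184% and 0.0199% with salt, against 0.0362%, 0.0289% and 0.0265% in the controls. Each share is of the library's own total, a scaling that moved the median of all genes by -0.25 with salt. In normalized RPM the regulators summed to 208 in the double mutant, 205 in Δ*cnaB* and 215 in the parent with salt, against 334, 260 and 245 without it.

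**Figure D2:**
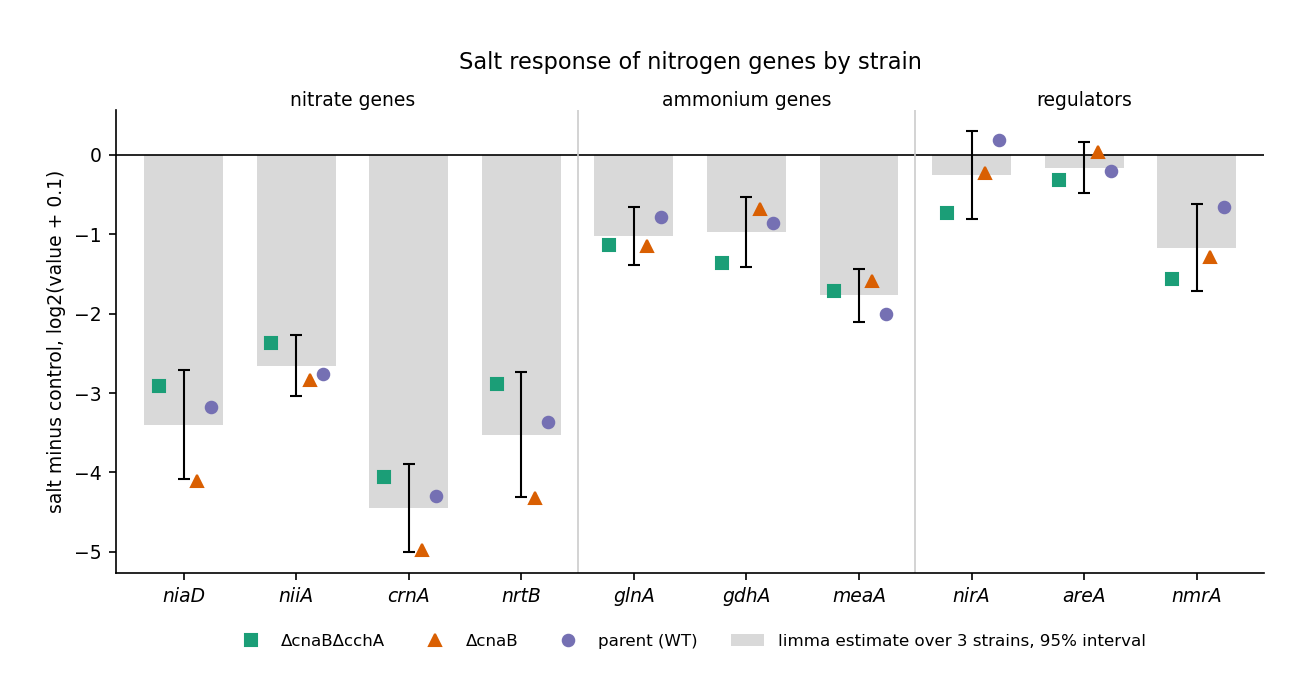
Bars give the limma estimate of the salt response over the 3 strains on the log2(value + 0.1) scale with its 95% interval, and symbols give the response of each strain from 1 salt and 1 control library. The nitrate genes lie between -2.38 and -4.98 in every strain, and *nirA* and *areA* lie on both sides of 0.

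The ammonium genes fell less. *meaA*, an ammonium permease gene, had 413 normalized RPM in the double mutant, 289 in Δ*cnaB* and 275 in the parent with salt, against 1362, 872 and 1101 without it. Its fall of -1.77 ± 0.13 (SE, log2, adjusted p = 0.0013) was the largest of the 3, and the salt values lay far below the controls. *glnA*, for glutamine synthetase, had 2609, 2412 and 2432 with salt, against 5734, 5352 and 4169 in the controls. It fell by 1.02 ± 0.14 on the log2 scale (adjusted p = 0.0051). *gdhA*, for the NADP-dependent glutamate dehydrogenase, had 393, 567 and 879 with salt in the double mutant, Δ*cnaB* and the parent, against 1013, 912 and 1598 without it. The highest salt value was 879 (parent) and the lowest control value 912 (Δ*cnaB*), in values scaled strain by strain. On a scale common to all libraries these were 757 and 966. The parent was above the deletion strains in both treatments. The log2 fold change of -0.97 ± 0.17 (adjusted p = 0.0093) did not pass without the strain block (adjusted p = 0.081).

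Of the regulators, 1 of 3 passed as lower with salt, where 26.6% of all genes tested did. *nirA*, the activator of the nitrate genes, had 39.2, 41.9 and 51.6 normalized RPM with salt in the double mutant, Δ*cnaB* and the parent, against 65.0, 49.1 and 45.2 without it. The groups overlapped, the value being lower with salt in the deletion strains and higher in the parent. Its log2 fold change was -0.26 (95% interval -0.81 to 0.30, adjusted p = 0.34), and it passed only when the parent was left out (-0.48, adjusted p = 0.047). *areA*, the GATA factor gene, had 135, 128 and 136 with salt and 168, 124 and 157 without it, and its salt values overlapped the control values. On a scale common to all libraries its salt values were 147, 137 and 117. For *areA* the log2 fold change was -0.16 (95% interval -0.48 to 0.16, adjusted p = 0.31). Scaling every library to its total moved the median of all genes by -0.25, and the change of *areA* was then -0.41 (adjusted p = 0.036), or -0.14 relative to that median, as against -0.13 in the deposited values. *nmrA*, for the protein that restrains AreA, had 34.1, 35.5 and 27.3 with salt, against 100.5, 86.7 and 43.1 without it. Here the parent control was less than that of either deletion strain. *nmrA* fell by 1.17 ± 0.21 on the log2 scale (adjusted p = 0.010), and leaving out Δ*cnaB*Δ*cchA* gave -0.97 (adjusted p = 0.051).

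Set side by side, the 7 structural genes had a median log2 fold change of -2.66 and the 3 regulators of -0.26, where the median of all genes tested was -0.02. The regulator median is the value of *nirA*, and the classes overlapped. The regulator *nmrA* (-1.17) fell more than the structural genes *glnA* (-1.02) and *gdhA* (-0.97). The log2 response of *niaD* minus that of *areA* was -2.59 in the double mutant, -4.15 in Δ*cnaB* and -2.97 in the parent, and minus that of *nirA* it was -2.18, -3.88 and -3.37. *niaD* thus had the lower response in all 3 strains.

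**Figure D3:**
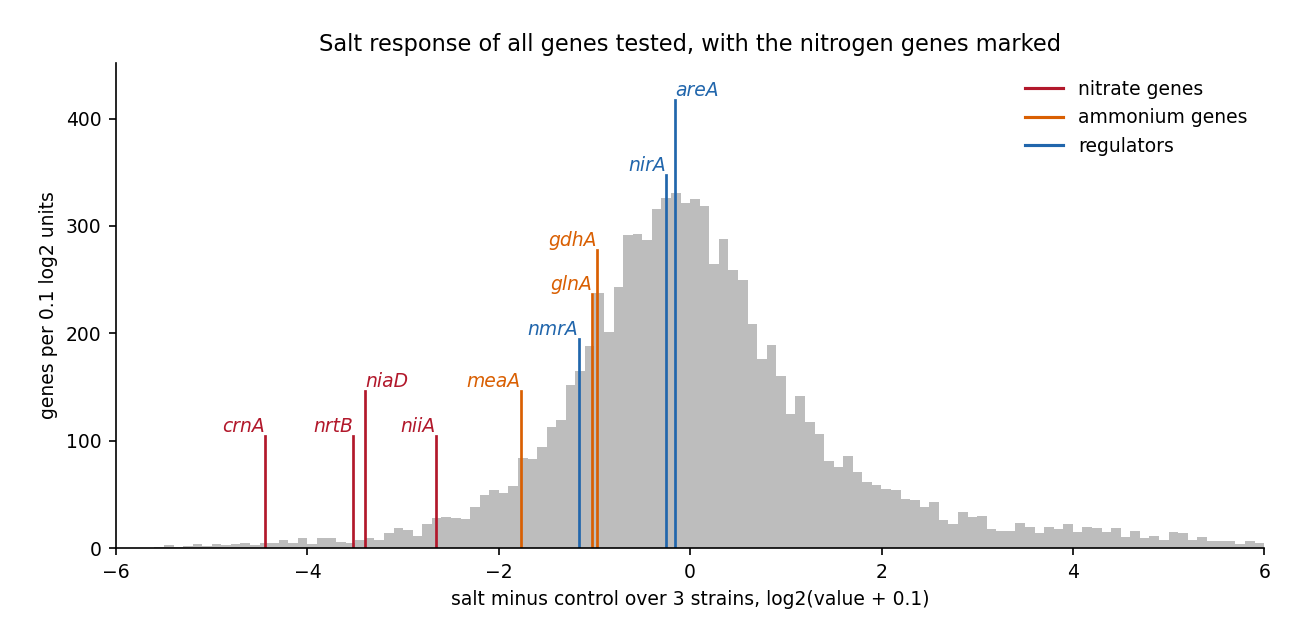
The histogram counts all 8673 genes tested by their salt response over the 3 strains (log2, 0.1 per bar), and vertical lines mark the 10 nitrogen genes, their height having no meaning. The nitrate genes stand in the left tail and *areA* and *nirA* near the centre, and 80 genes beyond 6 in either direction are not drawn.

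Within a strain, a gene was counted as changed when its log2(value + 0.1) differed by more than 1 between the salt and the control library, with no test since each side is 1 library. All 4 nitrate genes were past this limit downward in each strain. With the ammonium genes and regulators, 8 of the 10 genes were past it in the double mutant, 7 in Δ*cnaB* and 5 in the parent, where 18.8%, 19% and 19.3% of all genes were. None of the 10 was past the limit upward, where 21%, 21.9% and 22.7% of all genes were. The strains were separated in this count by *glnA*, *gdhA* and *nmrA*. *glnA* stood at -1.14 in the double mutant, -1.15 in Δ*cnaB* and -0.78 in the parent. *gdhA* stood at -1.37, -0.69 and -0.86 in the same order. *nmrA* stood at -1.56, -1.28 and -0.66.

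The nitrate genes ranked the strains alike. Each of the 4 had its lowest response in Δ*cnaB* and its highest in the double mutant, with the parent between them. *niaD* with salt stood at 13.3% of its control level in the double mutant, 5.80% in Δ*cnaB* and 11.0% in the parent. On the log2 scale its response was -2.91 in the double mutant (95% counting interval -2.94 to -2.88). It was -4.11 in Δ*cnaB* (-4.16 to -4.06), and the parent had -3.18 (-3.22 to -3.15). *nrtB* had -2.88 in the double mutant, -4.33 in Δ*cnaB* and -3.36 in the parent. *crnA* had -4.06, -4.98 and -4.30, and *niiA* -2.38, -2.83 and -2.76. These intervals hold counting error only, each response comes from 1 pair of libraries, and the difference between the deletion strains has no test.

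The next question was whether the salt response differed without *cnaB*. The mean response of both deletion strains minus that of the parent was tested by limma, with 1 residual degree of freedom. A gene's own spread came only from the difference between the deletion strains, and limma moderated it over all genes. The intervals and p-values thus rest in part on other genes. The parent was assumed to vary like the deletion strains. No nitrogen gene passed in either direction by limma or by limma voom, and 1 of the 10 (*nmrA*) had an unadjusted p under 0.05, as did 2265 of all 8673 genes. With adjustment, of all genes tested 0.0115% passed upward and 0.0346% downward (0.0461% together). For *nmrA* the difference was -0.77 (95% interval -1.34 to -0.19, adjusted p = 0.13), the parent having the smallest of its 3 responses. For *nirA* it was -0.67 (-1.45 to 0.11, adjusted p = 0.24). For the nitrate genes the deletion strains lay on either side of the parent, and the intervals were wide. *niaD* had -0.32 (-1.89 to 1.25) and *crnA* -0.22 (-1.44 to 1.01). These intervals leave room for differences of more than 1 in both directions.

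Levels were then compared between strains over salt and control together. The deposited values were scaled strain by strain, so the recovered reads of all 6 libraries were first put on a common scale with TMM factors (trimmed means of log ratios). The 2 libraries of a strain are its salt and control libraries and not replicates of a treatment. Against the parent, *niiA* was higher in Δ*cnaB*Δ*cchA*, and this was the sole call among the 10 genes in that contrast, where 5.5% of all genes passed upward and 0.807% downward (6.31% together). Without adjustment 7 of the 10 had a limma p under 0.05 there, as did 2727 of all 8673 genes. No nitrogen gene passed in Δ*cnaB* against the parent by limma or limma voom, where 4.89% of all genes passed upward and 1.06% downward (5.95% together). At an unadjusted p under 0.05 there were 3 of the 10, and 2279 of all 8673 genes.

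*niiA* had 1607 with salt and 8193 without it in Δ*cnaB*Δ*cchA*, 889 and 6265 in Δ*cnaB*, and 583 and 4043 in the parent, all in RPM on the common scale. The strains kept that order with and without salt. The difference from the parent was 1.24 ± 0.18 in the double mutant (SE, log2, adjusted p = 0.034) and 0.62 ± 0.18 in Δ*cnaB* (adjusted p = 0.13). Scaling every library to its total moved the median of all genes by -0.30 in the double mutant contrast and gave 0.93 for *niiA* there (adjusted p = 0.054). *nrtB* had 66.8 and 485 in the double mutant, 25.8 and 515 in Δ*cnaB*, and 21.2 and 224 in the parent. Its ratio to the parent in Δ*cnaB* was 1.22 with salt and 2.30 without it. The differences were 1.38 ± 0.36 in the double mutant (adjusted p = 0.090) and 0.74 ± 0.36 in Δ*cnaB* (adjusted p = 0.27).

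**Figure D4:**
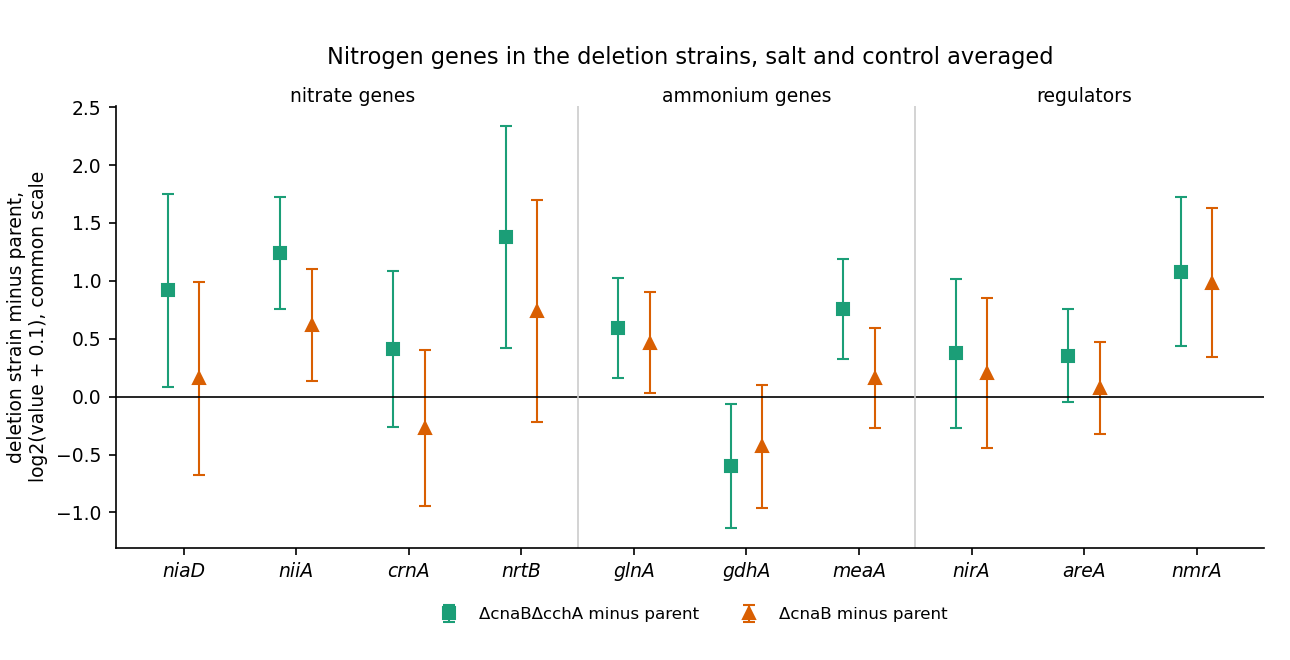
Points give the difference of each deletion strain from the parent on the log2(value + 0.1) scale, averaged over salt and control on the common scale, with 95% intervals of limma. All genes but *gdhA* lie above 0 in the double mutant, and *niiA* there was the only one with an adjusted p under 0.05.

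Some of the other members showed sizeable differences that missed the threshold. With salt and without it, *nmrA* had 37.1 and 107.6 in the double mutant, 38.1 and 91.8 in Δ*cnaB*, and 23.5 and 37.9 in the parent. Both deletion strains lay above the parent in each treatment, by 1.08 (95% interval 0.43 to 1.73, adjusted p = 0.072) and 0.98 (0.34 to 1.63, adjusted p = 0.10) on the log2 scale. *gdhA* was the one gene with lower values in both deletion strains in each treatment, with log2 differences of -0.60 (-1.13 to -0.07, adjusted p = 0.13) in Δ*cnaB*Δ*cchA* and -0.43 (-0.96 to 0.10, adjusted p = 0.25) in Δ*cnaB*. *meaA* differed by 0.76 (0.33 to 1.19, adjusted p = 0.068) in Δ*cnaB*Δ*cchA* and by 0.16 in Δ*cnaB*. *areA* differed by 0.35 (-0.04 to 0.75, adjusted p = 0.19) and 0.07 (-0.33 to 0.47, adjusted p = 0.79). For *niaD*, *meaA*, *nirA* and *areA* the sign of the Δ*cnaB* difference turned when libraries were scaled to their totals, which moved the median of all genes by -0.29 in that contrast. Relative to that median they kept their sign, at 0.13 for *niaD*, 0.13 for *meaA*, 0.18 for *nirA* and 0.05 for *areA*, against 0.14, 0.14, 0.18 and 0.06 on the common scale.

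The added loss of *cchA* was read from Δ*cnaB*Δ*cchA* against Δ*cnaB*. No nitrogen gene passed (3 had an unadjusted p under 0.05), and neither did any of the 8673 genes (0% in either direction, with 321 at an unadjusted limma p under 0.05 and 0 calls by limma voom). The 4 nitrate genes differed by between 0.62 and 0.76 on the log2 scale, with 95% intervals of 0.14 to 1.10 for *niiA*, 0.01 to 1.36 for *crnA*, -0.07 to 1.59 for *niaD* and -0.32 to 1.60 for *nrtB*, against a median of 0.00 over all genes. Of the ammonium genes, *meaA* differed by 0.60 (0.17 to 1.03), *glnA* by 0.13 and *gdhA* by -0.17. The regulators differed by 0.10 (*nmrA*), 0.17 (*nirA*) and 0.28 (*areA*).

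The genes *crnA*, *niiA* and *niaD* lie near one another in the RefSeq gene order, so their neighbours were examined as well, a choice made after values were seen. Of the 3 genes on each side, AN1009, next to *crnA*, was listed at 0 in all salt libraries, against 3.11 in the double mutant, 3.71 in Δ*cnaB* and 6.37 in the parent without salt. It passed the filter through its control libraries alone, and values under 1 are listed as 0, so no test is given for it. AN1010, further out on that side, did not pass (0.24 ± 0.16, SE, adjusted p = 0.26), and AN1011 rose by 0.97 ± 0.15 on the log2 scale (adjusted p = 0.0072). On the *niaD* side AN1005, AN1004 and AN1003 had log2 fold changes of 0.12, 0.20 and -0.30, and none passed. RefSeq places AN10143 between *crnA* and *niiA*, and that gene was not analysed here.

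Other nitrogen genes were taken from a list of 25 symbols, of which RefSeq matched 2. *gatA* (AN2248), for the transaminase that degrades γ-aminobutyrate, had 188, 163 and 166 normalized RPM with salt in the double mutant, Δ*cnaB* and the parent, against 310, 281 and 244 without it. Its salt value was the lower in every strain, and it fell by 0.69 ± 0.11 on the log2 scale (adjusted p = 0.0070). *amdR* (AN4035), for an activator of genes that use acetamide and ω-amino acids, moved the other way, with 18.0, 15.8 and 45.2 with salt, against 10.7, 11.7 and 21.4 without it (0.75 ± 0.19, adjusted p = 0.026).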

How the data were processed

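Gene expression was measured by RNA-seq in 6 libraries, 1 per strain and treatment, grouped by the sample titles. The authors discarded adapter and low-quality reads, aligned the rest to ASM14920v1 (TopHat), obtained gene counts from RSEM and applied TMM ahead of DEGseq. The deposited signal is RPM after that scaling of a strain's salt and control library, although the heading says read count. Blank genes (477 to 557 per library) were taken as 0. All nonzero values (100%) lay within 0.05 reads of a whole multiple of a library's step. The recovered reads were used for intervals, shares and the common scale. edgeR was not used. The plan named it as an alternative on recovered reads, and limma voom was run on those reads in its place.

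Salt was compared with control by limma 3.58.1 (two-sided, trend) on log2(value + 0.1) with strain as block, keeping genes that reached 1 in 3 or more libraries. Strains were compared in an additive fit on the common scale with 2 residual degrees of freedom. P values were Benjamini-Hochberg adjusted over all genes tested, with a threshold of 0.05. Fold changes on this scale understate changes of low genes. Nothing says that the samples are separate cultures beyond their strain and treatment. The members, lists and comparisons were chosen with earlier results of these data known. All 10 members are named, with the listed genes that RefSeq matched, and for *niaD* and *areA* the 3 genes of most similar pattern. The alternatives were other pseudocounts, filters and scalings, no strain block, single strains left out, and limma voom on recovered reads, the last chosen after seeing the data. The fits for salt, for Δ*cnaB* against the parent and for the salt response without *cnaB* were tested on simulated data. The noise was independent and normal, without the limit under which values are listed as 0. No minimum of recovered genes was required for the last of these fits. The names came from RefSeq assembly ASM1142v1, whose coordinates are not given because the assemblies differ.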

Additional observations from a re-analysis of the deposited data

How the results depend on the processing

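The fall of the 4 nitrate genes, *glnA* and *meaA* with salt kept its direction and its adjusted p under 0.05 in all 12 alternatives run, and *crnA* ranged from -4.70 to -4.18. The exceptions among the other members are given beside their values in the report. No paired analysis by replicate number was possible because each group has 1 library, so strain served as the block. Without it, 1256 genes in place of 2306 were lower with salt. With single strains left out, between 1515 and 2635 genes were higher and between 1172 and 2618 lower. The lowest numbers came without Δ*cnaB*Δ*cchA*, the highest without the parent, and without Δ*cnaB* they were 1571 and 1396. Scaling to library totals turned 2489 genes higher and 2306 lower with salt into 1937 and 3081. Under it the Δ*cnaB* difference from the parent was -0.14 for *niaD*, -0.13 for *meaA*, -0.091 for *nirA* and -0.22 for *areA*, and 221 genes in place of 424 were higher there. In Δ*cnaB*Δ*cchA* against the parent that scaling left 0 nitrogen genes higher, and a fit on the 4 libraries of both strains gave 2, *nrtB* being added. Of all genes, 70 were lower in that contrast, against 135 with a pseudocount of 1, 110 with a minimum value of 5, 566 with own totals and 126 with limma voom. Between the deletion strains 1 gene was lower with a pseudocount of 1 or a minimum value of 5, and 1 was higher and 2 lower in the fit on 4 libraries. The test of the salt response without *cnaB* called 1 gene higher and 3 lower. It called 270 and 247 with a pseudocount of 1, 413 and 462 with a minimum value of 5, 69 and 98 with limma voom, 2 and 8 with own totals, and 0 and 0 with a pseudocount of 0.01 or no filter. None of these calls was a nitrogen gene. With a limit of 2 within a strain, 929, 969 and 1078 genes were higher and 508, 599 and 608 lower in Δ*cnaB*Δ*cchA*, Δ*cnaB* and the parent, and 4 nitrogen genes were lower in each. The causes of these changes were not tested. The edgeR alternative was not run.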

Other observations

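The genes with the most similar pattern to *niaD* across the 6 libraries were AN11246, AN6740 and AN8905, out of 6329 genes that reached 5 in every library. Their Pearson correlations with *niaD* were 0.999, 0.998 and 0.998 on the log2 scale, above that of *nrtB*, at 0.991. AN8905 had 29.1 normalized RPM in the double mutant, 14.6 in Δ*cnaB* and 19.2 in the parent with salt, against 110, 107 and 108 without it. Like *niaD* it was lowest with salt in Δ*cnaB*. For *areA* the nearest genes were AN7892, AN11060 and AN6372, with correlations of 0.979, 0.976 and 0.971, and *areA* had 0.527 with *niaD*. These are descriptions over libraries that share their treatment and strain, chosen as the highest of many.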
